A study of Homo sapiens with 80 samples.

Results

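Nascent transcription was compared between lenalidomide-regrown and parental SU-DHL-1 cells by PRO-seq, using 6 of the 80 samples of the series. SU-DHL-1 is an established line of ALK-positive anaplastic large cell lymphoma, labelled as derived from a lymph node. The regrown group was 3 independent pools that had become resistant to lenalidomide during long culture under rising concentrations and had then been without drug for at least 2 months, with 1 library for each pool. The parental group was 3 libraries of the untreated line. Both were grown in RPMI medium with fetal bovine serum, and no drug was labelled as present during the assay. Each pool is a population and not a clone. The labels do not say whether the parental libraries came from separate cultures, so a p-value here measures the spread between these libraries, which in the parental group may be technical.

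PRO-seq labels and sequences RNA at the active site of engaged RNA polymerase, so a gene's count reads how much polymerase is transcribing it, before splicing, export and decay of the RNA. Polymerase II usually pauses shortly after the start of a gene, held by the factors NELF and DSIF, and the kinase P-TEFb releases it into the gene body. Lenalidomide binds cereblon, the substrate adaptor of a ubiquitin ligase, and redirects it to zinc finger proteins such as the lymphoid factor IKZF1. In ALK-positive lymphoma an ALK fusion kinase drives STAT3, MAPK and PI3-kinase signalling, and the cells keep few surface components of the T cell receptor.

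The promoters of 6 of the genes described below are given here to show what the sequence before a strongly changed gene looked like. They were picked, after the values were seen, from 12 genes among those with the smallest p whose counted interval began within 50 bases of a RefSeq start. Each sequence is the 250 bases before the RefSeq start (assembly GRCh38.p14), 5′ to 3′ on the gene's own strand. Capitals mark matches on either strand to any of 4 motifs, TGANTCA (AP-1), TTCNNNGAA (STAT), TGGGAA (Ikaros core) and GGGCGG (GC box), and overlapping matches were merged. The promoters of NETO2 (chr16:47143946-47144195 on the minus strand), TP73 (chr1:3652266-3652515 on the plus strand) and PTPRC (chr1:198638790-198639039 on the plus strand) belong to genes higher in regrown cells. Those of NMNAT3 (chr3:139677973-139678222 on the minus strand), ERRFI1 (chr1:8026310-8026559 on the minus strand) and USP40 (chr2:233566783-233567032 on the minus strand) belong to genes lower in regrown cells.
NETO2: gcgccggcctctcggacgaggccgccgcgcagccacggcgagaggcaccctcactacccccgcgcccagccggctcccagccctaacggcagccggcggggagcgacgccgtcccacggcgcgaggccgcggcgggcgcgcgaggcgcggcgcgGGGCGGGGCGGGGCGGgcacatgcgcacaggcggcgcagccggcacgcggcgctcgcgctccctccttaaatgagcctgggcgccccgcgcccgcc
TP73: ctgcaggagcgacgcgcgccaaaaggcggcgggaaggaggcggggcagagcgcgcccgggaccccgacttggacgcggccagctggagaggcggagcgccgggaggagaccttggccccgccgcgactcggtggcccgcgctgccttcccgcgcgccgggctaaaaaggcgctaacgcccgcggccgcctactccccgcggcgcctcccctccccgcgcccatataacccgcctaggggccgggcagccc
PTPRC: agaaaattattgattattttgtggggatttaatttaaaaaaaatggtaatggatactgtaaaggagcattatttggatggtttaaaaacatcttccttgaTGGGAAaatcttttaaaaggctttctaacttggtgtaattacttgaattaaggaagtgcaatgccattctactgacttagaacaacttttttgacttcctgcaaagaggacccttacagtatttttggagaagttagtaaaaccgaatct
NMNAT3: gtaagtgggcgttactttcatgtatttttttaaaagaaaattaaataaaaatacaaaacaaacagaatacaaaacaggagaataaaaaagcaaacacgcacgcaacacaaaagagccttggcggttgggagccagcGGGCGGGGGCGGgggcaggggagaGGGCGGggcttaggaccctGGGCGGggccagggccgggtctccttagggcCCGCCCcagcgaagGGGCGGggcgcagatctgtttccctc
ERRFI1: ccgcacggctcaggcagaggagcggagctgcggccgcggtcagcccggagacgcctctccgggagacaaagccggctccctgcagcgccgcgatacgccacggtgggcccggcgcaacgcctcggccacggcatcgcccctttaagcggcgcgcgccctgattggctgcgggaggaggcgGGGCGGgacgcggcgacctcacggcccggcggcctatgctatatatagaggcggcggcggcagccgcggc
USP40: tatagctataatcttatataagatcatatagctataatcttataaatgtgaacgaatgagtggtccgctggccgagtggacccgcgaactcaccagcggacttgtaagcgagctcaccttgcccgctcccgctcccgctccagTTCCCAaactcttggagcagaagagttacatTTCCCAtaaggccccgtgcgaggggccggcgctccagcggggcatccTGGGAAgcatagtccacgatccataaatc

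The PTPRC window held 1 Ikaros core and the USP40 window 3. GC boxes stood 3 times in the NETO2 window, 6 times in that of NMNAT3 and 1 time in that of ERRFI1, and the TP73 window held none of the 4 motifs. Of 9906 promoters that could be matched to tested genes, 19.4% held an Ikaros core, 67.3% a GC box, 5.65% a STAT motif and 3.93% an AP-1 motif. These promoters covered only 60.2% of the 16456 genes tested. Motif shares of genes that rose or fell would hold for that part alone and are not reported here. A match is a string of letters and was not tested as a binding site.

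Across the genome the groups stood well apart. Of 16456 genes tested among 17792 counted, 2299 were higher and 2674 lower in regrown cells at an adjusted p under 0.05 (edgeR quasi-likelihood test with Benjamini-Hochberg adjustment), which is 30.2% of genes called, 14.0% higher and 16.2% lower. The median log2 fold change of all genes was 0.02. Without parental replicate 2, 3245 genes were called, of which 1417 were higher. In 45.0% of genes the levels of the 2 groups did not overlap. Library totals ran from 33467869 to 47199672 counts. The correlation of log2 levels across genes was 0.982 to 0.987 between regrown pools, 0.989 to 0.994 between parental libraries and 0.947 to 0.955 between a pool and a parental library. Levels are given as CPM, counts relative to the library total after TMM scaling, in the order of replicates 1, 2 and 3, and changes as the log2 fold change of regrown over parental cells ± SE (n = 3 each).

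Markers fitted the label in part. Of 12 markers of this lymphoma 10 had a tested row, among them TNFRSF8, the gene of CD30, and ALK, and their summed level was 3451, 3720 and 4265 CPM in the regrown pools and 4005, 4530.0 and 3877 CPM in the parental libraries. The sum hides its members: of the 10, 2 were called higher and 1 lower (median -0.02). That is 30% called, beside 30.2% of all genes. IL2RA had the most counts of the 10 in every library. ALK had 22884, 24273 and 29284 counts before scaling in the pools and 15660, 13090 and 12460 in the parental libraries. PTPRC was near 0 in the parental libraries. Of 28 markers of other lineages 5 had a tested row. The only B cell marker tested, CD79A, was at 2.62, 2.31 and 2.55 CPM in regrown against 4.28, 3.48 and 2.87 CPM in parental libraries. CD163, the only myeloid marker tested, and ITGA2B, the only erythroid or megakaryocyte marker tested, are given below. KRT8 and KRT18 together had 2.80, 3.76 and 2.55 CPM in regrown against 5.93, 5.63 and 6.59 CPM in parental libraries. None of these 5 markers rose. KRT18 was called lower, but not without parental replicate 1 (-1.01). The part of these markers in the results was not tested.

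The 12 genes with the smallest p and at least a 2-fold rise included PTPRC, PIK3CG, RGS16 and ADGRG3. PTPRC, which encodes the leukocyte phosphatase CD45 (chromosome 1, 198639081 to 198757476, hg38), had 71.1, 119.9 and 159 CPM in the regrown pools and 2.43, 2.36 and 1.33 CPM in the parental libraries. All 3 pools were far above the parental range, with pool 1 lowest and pool 3 highest, and the change was 5.84 ± 0.33, adjusted p = 1.74e-06. PIK3CG encodes p110γ, the catalytic subunit of a PI3-kinase driven by G protein-coupled receptors, and had 19.6, 15.5 and 14.7 CPM in the regrown pools and 0.653, 0.501 and 0.345 CPM in the parental libraries. The pools lay close together and the change was 5.04 ± 0.26, adjusted p = 1.31e-06. RGS16, which inhibits Gα signalling, had 337, 354 and 409 CPM in the regrown pools and 61.7, 79.9 and 66.2 CPM in the parental libraries. The adhesion receptor gene ADGRG3 averaged 150.2 ± 4.79 CPM in the regrown pools and 26.2 ± 1.96 CPM in the parental libraries (SD, n = 3 each). Neither gene's groups overlapped, and the changes were 2.41 ± 0.13 and 2.52 ± 0.10.

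TP73, a transcription factor of the p53 family, had 35.1, 36.4 and 37.5 CPM in the regrown pools and 2.22, 1.80 and 1.70 CPM in the parental libraries (4.25 ± 0.16, adjusted p = 1.56e-07). The pools differed little and all stood above the parental libraries. SATB1, an organiser of T cell chromatin, had 29.2, 30.3 and 42.0 CPM in the regrown pools and 2.32, 3.24 and 2.63 CPM in the parental libraries (3.63 ± 0.20, adjusted p = 1.74e-06). NFKBIZ, a nuclear regulator of NF-kB targets, had 165, 199 and 155 CPM in the regrown pools and 36.6, 37.4 and 39.1 CPM in the parental libraries (2.20 ± 0.11, adjusted p = 1.24e-06). In both genes the lowest pool exceeded the highest parental library by several fold. NETO2, an auxiliary subunit of kainate receptors, rose by 4.11 ± 0.16, the germ cell gene TEX19 by 4.00 ± 0.22, the Rab exchange factor gene DENND1B by 2.31 ± 0.11 and GPRIN3, named for neurite outgrowth, by 3.27 ± 0.18. TUBB, a β-tubulin gene, had 82.1, 72.1 and 74.7 CPM in the regrown pools and 22.9, 22.5 and 22.1 CPM in the parental libraries (1.76 ± 0.10). Its 24 nearest tested genes on chromosome 6 had a median of 1.59, so it moved with its neighbours. The neighbours of PTPRC had a median of 0.24, those of SATB1 0.28 and those of PIK3CG -0.01.

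The 12 genes with the smallest p among at least 2-fold falls included PIK3R6, ERRFI1, NMNAT3 and RFTN1. PIK3R6 encodes the p84 adaptor that pairs with p110γ, and had 38.4, 32.0 and 48.8 CPM in the regrown pools and 230.5, 224 and 237 CPM in the parental libraries. Every pool was below every parental library, and the change was -2.53 ± 0.14, adjusted p = 1.87e-06, opposite in sign to that of the catalytic subunit. ERRFI1, a feedback inhibitor of ERBB receptors, had 13.8, 13.0 and 11.5 CPM in the regrown pools and 90.3, 83.7 and 86.3 CPM in the parental libraries (-2.77 ± 0.11, adjusted p = 1.56e-07). NMNAT3, which makes NAD in mitochondria, had 2.32, 2.78 and 2.81 CPM in the regrown pools and 69.9, 68.0 and 59.1 CPM in the parental libraries. Its change of -4.63 ± 0.14, adjusted p = 6.49e-08, was larger than that of its neighbours on chromosome 3q, whose median was -0.78. RFTN1, which encodes the lipid raft protein raftlin, had 66.1, 58.3 and 48.5 CPM in the regrown pools and 386, 420.1 and 399 CPM in the parental libraries (-2.80 ± 0.13), and its neighbours had a median of 0.36, on the other side of 0.

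RYR2, a long gene of a calcium release channel, had 76.8, 105 and 97.6 CPM in the regrown pools and 563, 682 and 551 CPM in the parental libraries (-2.68 ± 0.15). The pools and the parental libraries were far apart. The cell adhesion gene NRCAM fell by 3.11 ± 0.13 on the log2 scale, SPTBN1, the gene of a spectrin of the membrane skeleton, by 3.99 ± 0.17, the heparan sulfatase gene SULF1 by 4.27 ± 0.19, the deubiquitinase gene USP40 by 4.45 ± 0.18 and the homeobox gene MEIS3 by 2.12 ± 0.12. AMACR, an enzyme of branched fatty acid oxidation, had 30.8, 35.9 and 40.0 CPM in the regrown pools and 179, 180.4 and 157 CPM in the parental libraries (-2.27 ± 0.12). SLC45A2, a melanosomal transporter gene on the same strand just downstream of AMACR on chromosome 5, had 2.20, 1.68 and 2.20 CPM in the regrown pools and 21.1, 22.4 and 18.8 CPM in the parental libraries (-3.36 ± 0.19). The pair fell together, and polymerase running past the end of AMACR cannot be told apart from polymerase on SLC45A2 in these counts.

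**Figure D1:**
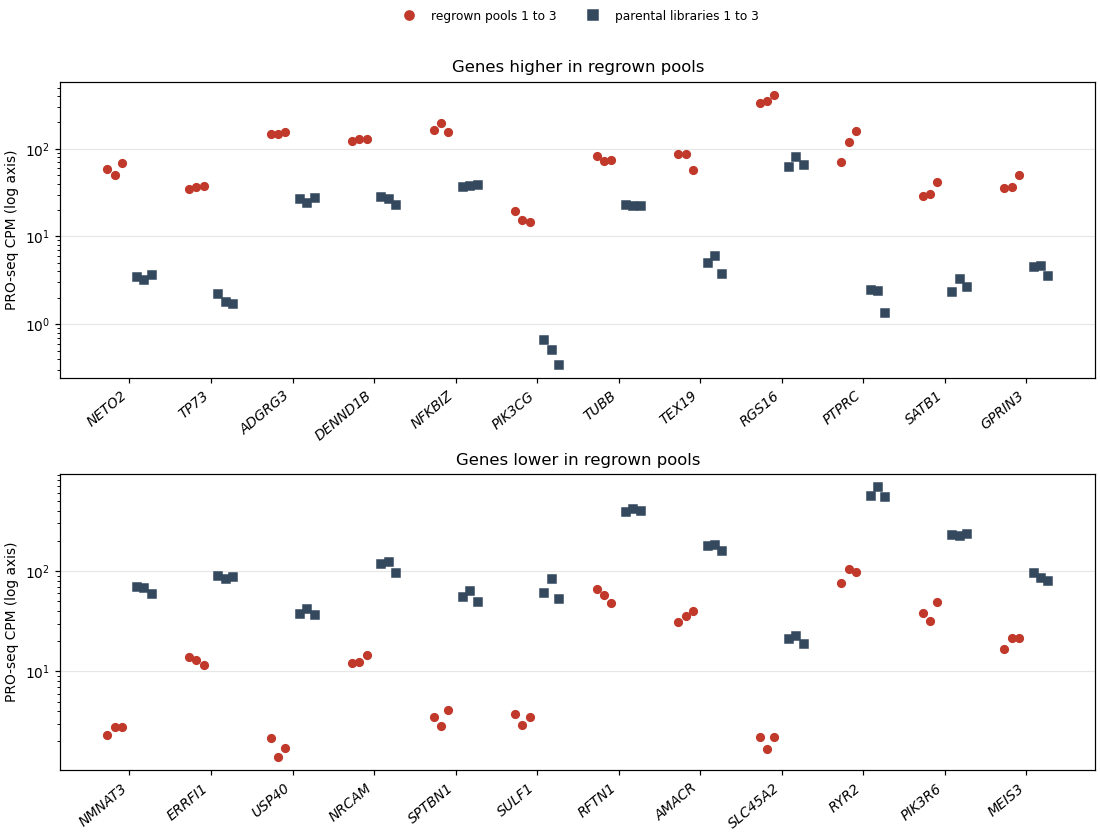
PRO-seq level in CPM on a log axis for the 12 genes with the smallest p among at least 2-fold rises (top) and falls (bottom), with a red circle for each regrown pool and, to its right, a dark square for each parental library. In all 24 genes the 3 pools lay on 1 side of the 3 parental libraries, which the rule for choosing them required.

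Differences per kilobase of counted interval picked out short genes. The 10 with the largest rise were all clustered histone genes of chromosome 6, led by HIST1H2AM with 851, 680.2 and 662 CPM in the regrown pools and 366, 261 and 280.1 CPM in the parental libraries, and the neighbours of HIST1H2AM had a median of 1.02. Reads of such paralogs can be shared. Among the 10 with the largest fall, RHOB, a stress-responsive small GTPase gene, averaged 9.40 ± 5.75 CPM in the regrown pools and 90.2 ± 6.38 CPM in the parental libraries (SD, n = 3 each), with pool 3 lowest. DUSP1, a phosphatase that switches off MAP kinases, had 103, 76.7 and 80.8 CPM in the regrown pools and 174, 161 and 223 CPM in the parental libraries (-1.10 ± 0.15, adjusted p = 0.000341). IFITM3, an antiviral membrane protein, had 7.87, 11.5 and 13.4 CPM in the regrown pools and 30.3, 28.7 and 29.5 CPM in the parental libraries (-1.43 ± 0.18, adjusted p = 0.000269), and HSPB1, a small heat shock protein, had 18.0, 21.3 and 16.1 CPM in the regrown pools and 47.8, 40.0 and 37.7 CPM in the parental libraries (-1.18 ± 0.14, adjusted p = 0.000187). The groups did not overlap in RHOB, DUSP1, IFITM3 or HSPB1. The vault RNA gene VTRNA1-2, which polymerase III transcribes, had 8.23, 7.32 and 7.50 CPM in the regrown pools and 16.4, 23.3 and 21.5 CPM in the parental libraries. In CXCR4, the receptor for CXCL12, no read fell in any parental library, against 173 counts over the pools, which is at least 52.4-fold higher over a floor of 3 counts for the group. TCEAL9 was the reverse, with 0 counts over the pools against 108 over the parental libraries, at least 39.6-fold lower.

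Of 619 distinct genes tested in 27 lists, 5 of them marker lists, 200 were called, beside 30.2% of all genes. Most lists had members that rose and others that fell, and a list's count is set here beside the 14.0% higher, the 16.2% lower and the median of 0.02 over all genes. No list was tested as a whole.

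**Figure D2:**
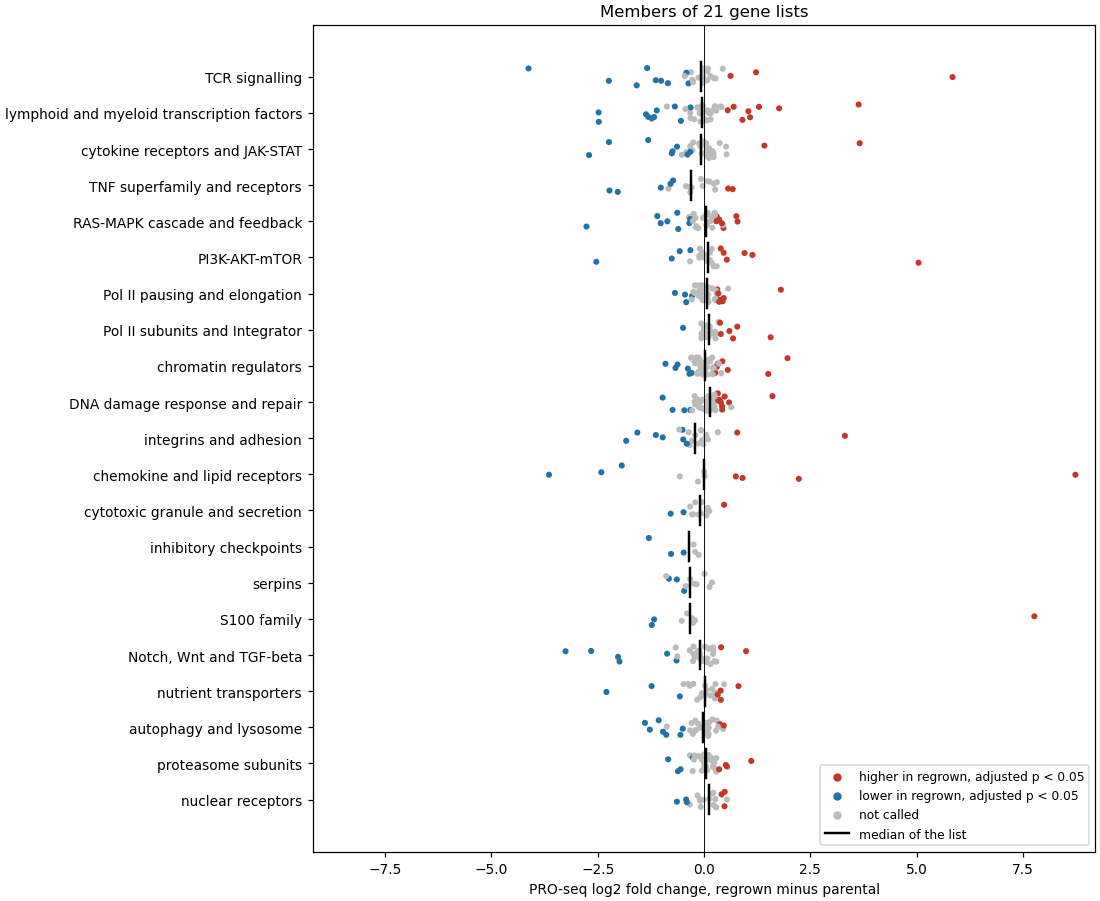
PRO-seq log2 fold change, regrown minus parental, of each tested member of 21 gene lists, with 1 point for each gene, colour for the call and a black line at each list's median. Most medians lay close to 0 with members on both sides, and the point of CXCR4 at the far right is a fitted value against parental libraries with 0 counts, not a bound.

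In T cell receptor signalling, of 30 tested, 3 rose and 9 fell (median -0.08). Besides PTPRC, the phosphatase gene PTPN22 (1.22 ± 0.15, adjusted p = 0.000167) and the Src-family kinase gene FYN (0.62 ± 0.15) rose. The tyrosine kinase gene SYK had 0.482, 0.451 and 0.817 CPM in the regrown pools and 11.0, 9.84 and 10.4 CPM in the parental libraries. Each pool had few counts on SYK, all below the parental libraries, and the change was -4.13 ± 0.27, adjusted p = 3.71e-06. UBASH3B, a phosphatase that damps receptor kinases, had 2.71, 2.13 and 3.20 CPM in the regrown pools and 11.9, 15.2 and 11.1 CPM in the parental libraries (-2.24 ± 0.22, adjusted p = 5.13e-05). The coreceptor genes ICOS (-1.58 ± 0.28) and SLAMF1 (-1.34 ± 0.26), the inhibitory surface gene CD5 (-1.13 ± 0.20), the phosphatase gene PTPN6 (-1.01 ± 0.28), the ubiquitin ligase gene CBLB (-0.85 ± 0.14), the kinase gene TEC (-0.42 ± 0.11) and the adaptor gene PAG1 (-0.37 ± 0.12) also fell. The kinase gene LCK was not called (0.15 ± 0.27), nor was the receptor subunit gene CD3D (0.44 ± 0.17, adjusted p = 0.0731).

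Of the lymphoid and myeloid transcription factors, 46 were tested, of which 8 rose and 10 fell (median -0.06). ID3, an inhibitor of E proteins, had 60.1, 61.6 and 60.3 CPM in the regrown pools and 16.5, 16.6 and 20.5 CPM in the parental libraries. The pools lay close to each other and stood above the parental libraries (1.76 ± 0.12, adjusted p = 4.45e-06). PRDM1, the gene of BLIMP1, rose by 1.29 ± 0.15, FOXP1 by 1.08 ± 0.19, FOXO1 by 1.04 ± 0.14 and GATA3, the T helper 2 factor, by 0.70 ± 0.10. BCL6 rose by 0.90 ± 0.13, but the median of its neighbours on chromosome 3 was 1.06. IRF4, a factor on which these lymphoma cells depend, had 123, 199 and 264 CPM in the regrown pools and 372, 542 and 464 CPM in the parental libraries, with pool 1 lowest and no overlap (-1.23 ± 0.24, adjusted p = 0.00358). The early response genes EGR3 (-2.48 ± 0.26, adjusted p = 6.72e-05) and NR4A1 (-2.48 ± 0.28, adjusted p = 0.000116) fell, as did TOX (-1.37 ± 0.19), RORA (-1.31 ± 0.16) and RUNX2 (-1.11 ± 0.17). MYB had 37.9, 47.2 and 45.4 CPM in the regrown pools and 85.7, 112 and 97.5 CPM in the parental libraries (-1.18 ± 0.12) beside a neighbour median of -0.73. IKZF1 was at 849.8, 787 and 904 CPM in regrown against 713, 852 and 720.0 CPM in parental libraries, with overlapping groups (0.15 ± 0.14, adjusted p = 0.434).

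In the list of cytokine receptors and JAK-STAT genes, of 36 tested, 2 rose and 8 fell (median -0.06), which is 27.8% called beside 30.2% of all genes. IL1R1, the signalling receptor for interleukin-1, had 138, 105 and 189.8 CPM in the regrown pools and 856, 1033 and 929.9 CPM in the parental libraries (-2.70 ± 0.21, adjusted p = 1.13e-05). IFNGR1, the ligand-binding chain of the interferon-γ receptor, had 101, 78.7 and 74.1 CPM in the regrown pools and 411, 406 and 378 CPM in the parental libraries (-2.24 ± 0.13, adjusted p = 2.67e-06). Pools and parental libraries did not overlap in either gene, although the neighbours of IFNGR1 on chromosome 6 had a median of -0.68 and those of IL1R1 -0.42. The signal transducers STAT4 (-1.31 ± 0.14) and STAT3 (-0.39 ± 0.13) and the receptor genes IL6R (-0.76 ± 0.10) and IL1R2 (-0.74 ± 0.16) fell. The exceptions were IL18RAP, the accessory chain of the interleukin-18 receptor, with 22.7, 15.3 and 17.3 CPM in the regrown pools and 1.46, 1.74 and 1.17 CPM in the parental libraries (3.66 ± 0.23, adjusted p = 3.58e-06), and IL21R, with 56.3, 40.1 and 43.8 CPM in the regrown pools and 15.1, 17.6 and 19.8 CPM in the parental libraries (1.42 ± 0.16, adjusted p = 0.000102). IL18RAP lies on chromosome 2 among genes whose median was -0.42, so it rose where its neighbours were lower.

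In the TNF superfamily and its receptors, of 20 tested, 2 rose and 5 fell (median -0.31). TNFRSF9, the gene of the costimulatory receptor 4-1BB, had 9.47, 11.7 and 19.5 CPM in the regrown pools and 62.9, 79.3 and 48.7 CPM in the parental libraries (-2.22 ± 0.26, adjusted p = 0.00013), and the gene of its ligand, TNFSF9, fell too (-0.79 ± 0.12, adjusted p = 0.000684). LTBR, the lymphotoxin β receptor, had 6.66, 4.76 and 3.02 CPM in the regrown pools and 16.4, 21.2 and 21.0 CPM in the parental libraries (-2.03 ± 0.26, adjusted p = 0.000268). In each of these genes the highest pool was below the lowest parental library. CD70 (-0.73 ± 0.23) and TNFRSF21 (-1.02 ± 0.14) fell. TNFSF10, which encodes the death ligand TRAIL, rose by 0.67 ± 0.12, and TNFSF13B, which encodes BAFF, by 0.56 ± 0.19, but TNFSF13B was not called without any 1 of 5 libraries, regrown replicate 3 being the exception, with changes between 0.45 and 0.65.

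In the RAS-MAPK cascade and its feedback genes, of 36 tested, 7 rose and 8 fell (median 0.05). The called falls included 5 negative regulators, ERRFI1, SPRED3 (-1.02 ± 0.13), DUSP1, DUSP5 (-0.86 ± 0.17) and DUSP6 (-0.61 ± 0.13). DUSP7 (0.79 ± 0.17) and DUSP16 (0.36 ± 0.12), of the same phosphatase family, rose. ETV5, a transcription factor induced by this cascade, had 125, 122 and 121 CPM in the regrown pools and 73.4, 74.7 and 69.0 CPM in the parental libraries (0.76 ± 0.08), but its neighbours on chromosome 3 had a median of 1.03, and ETV1 (0.46 ± 0.12) and ETV4 (0.29 ± 0.09) rose less. Without regrown replicate 2, or without parental replicate 1, 9 members of this list were called in place of 15. Of the PI3K-AKT-mTOR genes, 26 were tested, 6 rose and 4 fell (median 0.09). INPP4B, a phosphoinositide phosphatase, had 22.3, 19.1 and 28.3 CPM in the regrown pools and 10.2, 12.3 and 9.22 CPM in the parental libraries (1.14 ± 0.18, adjusted p = 0.00107). PIK3CA rose by 0.95 ± 0.10 and PIK3CB fell by 0.76 ± 0.11, and both followed their neighbours on chromosome 3, whose medians were 0.91 and -0.82.

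Genes of the transcription machinery were called at a share near that of all genes. In Pol II pausing and elongation, of 42 tested, 7 rose and 4 fell (median 0.06), which is 26.2% called. NELFE, a subunit of the pausing factor NELF, had 10.2, 12.9 and 12.6 CPM in the regrown pools and 3.13, 4.01 and 3.11 CPM in the parental libraries (1.80 ± 0.20, adjusted p = 8.87e-05), and its neighbours on chromosome 6 had a median of 1.65. The elongation factor genes ELL2 (-0.69 ± 0.11), AFF4 (-0.45 ± 0.09) and AFF1 (-0.42 ± 0.11) fell with neighbour medians of 0.04, 0.00 and 0.01. They encode members of the super elongation complex that carries P-TEFb, and the complex was not tested as a whole. NELFB (0.34 ± 0.11), EAF1 (0.46 ± 0.12) and EAF2 (0.43 ± 0.11) rose. The neighbour medians of EAF1 and EAF2 were 0.31 and 0.57. This list had 5 calls in place of 11 without regrown replicate 2 or parental replicate 1 or 2, and 6 without regrown replicate 3. AFF1 was not called without regrown replicate 2 (-0.37) or parental replicate 2 (-0.38), nor EAF1 without regrown replicate 3 (0.40) or parental replicate 1 (0.40). EAF2 lost its call without regrown replicate 2 (0.41) or parental replicate 2 (0.40). Of the Pol II subunits and Integrator, 26 were tested, 6 rose and 1 fell (median 0.12). POLR2H had 53.6, 81.6 and 80.9 CPM in the regrown pools and 23.4, 25.9 and 23.8 CPM in the parental libraries, beside a neighbour median of 1.05 on chromosome 3, and INTS1 rose by 0.78 ± 0.11. POLR2A, the gene of the largest subunit, had 241, 246 and 233 CPM in the regrown pools and 319, 299 and 397 CPM in the parental libraries (-0.49 ± 0.13, adjusted p = 0.0131). Its parental libraries were all above the pools. Without parental replicate 2 this list had 4 calls in place of 7.

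Among chromatin regulators, of 55 tested, 7 rose and 6 fell (median 0.03). SMARCA2, a catalytic subunit of SWI/SNF remodellers, had 48.6, 57.4 and 40.1 CPM in the regrown pools and 17.3, 18.8 and 15.2 CPM in the parental libraries (1.51 ± 0.15, adjusted p = 5.65e-05), although its neighbours on chromosome 9 had a median of -0.25. EHMT2, a histone H3 lysine methyltransferase, rose by 1.96 ± 0.19 in the same raised stretch of chromosome 6 as NELFE (1.66 for its neighbours). The methyltransferase genes KMT2D (0.56 ± 0.11) and KMT2A (0.43 ± 0.11) rose, and the deacetylase gene HDAC11 (-0.91 ± 0.19) and the DNA methyltransferase gene DNMT3A (-0.67 ± 0.21) fell. DNMT3A was not called without any 1 of 5 libraries, regrown replicate 1 being the exception, with changes between -0.46 and -0.70. This list had between 6 and 8 calls in place of 13 without regrown replicate 2 or 3 or parental replicate 1 or 2. In DNA damage response and repair, of 45 tested, 10 rose and 4 fell (median 0.14). MGMT, which repairs alkylated guanine, had 47.0, 52.6 and 55.9 CPM in the regrown pools and 99.4, 103 and 104 CPM in the parental libraries (-0.97 ± 0.09, adjusted p = 4.49e-05), beside a neighbour median of -0.60. The checkpoint kinase gene ATR fell by 0.74 ± 0.11 and its neighbours on chromosome 3q by 0.87 at the median. The other checkpoint kinase genes ATM (0.32 ± 0.11) and CHEK1 (0.32 ± 0.10) rose. Without parental replicate 1 there were 9 calls in place of 14.

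Genes of adhesion and migration were called in both directions. Among integrins and adhesion genes, of 23 tested, 2 rose and 7 fell (median -0.21). ITGA2, the α2 chain of a collagen receptor, had 10.2, 4.66 and 19.2 CPM in the regrown pools and 1.15, 0.943 and 1.33 CPM in the parental libraries (3.31 ± 0.46, adjusted p = 0.000418), with pool 2 lowest and pool 3 highest. The hyaluronan receptor gene CD44 rose by 0.78 ± 0.16. ITGA7 (-1.83 ± 0.24, adjusted p = 0.000265), ITGA5 (-1.13 ± 0.31), ITGAE (-0.97 ± 0.12), ITGB1 (-0.51 ± 0.11) and the galectin gene LGALS9 (-1.57 ± 0.24, adjusted p = 0.000784) fell. Among chemokine and lipid receptors, of 11 tested, 4 rose and 3 fell (median 0.00, also with CXCR4 at its bound). C5AR1, the complement C5a receptor, had 1.09, 0.953 and 1.49 CPM in the regrown pools and 9.77, 17.2 and 17.6 CPM in the parental libraries (-3.65 ± 0.29, adjusted p = 1.45e-05). S1PR1, which guides lymphocytes out of tissue, had 8.32, 14.4 and 16.1 CPM in the regrown pools and 45.7, 54.2 and 49.2 CPM in the parental libraries (-1.94 ± 0.21, adjusted p = 9.04e-05). CCR10 fell by 2.42 ± 0.24. No pool overlapped the parental range in C5AR1, S1PR1 or CCR10, beside 45.0% of all genes whose groups did not overlap. Of the 4 rises, CXCR4 is given above and CCR1 rose by 0.75 ± 0.25.

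In the small lists of cytotoxic, checkpoint, serpin and S100 genes 21.4%, 50%, 27.3% and 37.5% of tested members were called, beside 30.2% of all genes. In cytotoxic granules and secretion, of 14 tested, 1 rose and 2 fell (median -0.10), with no call for the granzyme gene GZMB (-0.13 ± 0.13) or the perforin gene PRF1 (0.09 ± 0.11). All 3 called inhibitory checkpoint genes of 6 tested were lower: CD274, the gene of PD-L1, had 189, 166 and 147 CPM in the regrown pools and 364, 493 and 378 CPM in the parental libraries (-1.30 ± 0.15, adjusted p = 0.000118), and LAG3 (-0.78 ± 0.20) and CD276 (-0.48 ± 0.13) fell as well. Without parental replicate 2 neither LAG3 (-0.65) nor CD276 (-0.50) was called, and CD276 was not called without regrown replicate 2 (-0.43). Of 11 serpins 3 fell, among them the protease inhibitor gene SERPINB1 with 398, 453 and 418 CPM in the regrown pools and 649, 838 and 765 CPM in the parental libraries (-0.83 ± 0.14, adjusted p = 0.00125). SERPINB3 and SERPINB4 are near-identical copies, so their counts are uncertain. The serpin list had 5 calls without regrown replicate 3 and 1 without parental replicate 2. In the S100 family, of 8 tested, 1 rose and 2 fell. The rise was in the alarmin gene S100A9, with 25.5, 14.5 and 3.85 CPM in the regrown pools and 0.0261, 0.0884 and 0.0797 CPM in the parental libraries. The pools differed from each other by several fold, with pool 3 lowest, yet all were above the parental libraries (7.76 ± 0.83, adjusted p = 8.11e-05). CD163, a scavenger receptor gene of macrophages, had 33.7, 9.33 and 8.27 CPM in the regrown pools and 67.3, 90.2 and 70.3 CPM in the parental libraries, with pool 1 above the other two (-2.16 ± 0.44, adjusted p = 0.00426). ITGA2B, of megakaryocytes, fell by 1.11 ± 0.21.

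In Notch, Wnt and TGF-β signalling, of 35 tested, 2 rose and 6 fell (median -0.09). The ligand gene WNT5A had 1.12, 1.05 and 0.670 CPM in the regrown pools and 5.12, 6.66 and 5.98 CPM in the parental libraries (-2.65 ± 0.26, adjusted p = 5.59e-05). The ligand gene WNT10B had 0.181, 0.201 and 0.272 CPM in regrown against 2.25, 1.77 and 2.42 CPM in parental libraries (-3.26 ± 0.32, adjusted p = 5.25e-05). The receptor gene FZD1 had 5.16, 6.04 and 11.1 CPM in regrown against 24.5, 29.0 and 35.7 CPM in parental libraries (-1.99 ± 0.27, adjusted p = 0.000371). AXIN2, a Wnt target and inhibitor, fell by 0.65 ± 0.10 and the Notch ligand gene DLL4 by 2.02 ± 0.33. The cytokine gene TGFB3 rose by 0.99 ± 0.16. The groups did not overlap in any of these genes, and the neighbour medians of WNT5A, WNT10B, FZD1 and DLL4 were between 0.06 and 0.10.

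Of 25 nutrient transporters 4 rose and 3 fell. SLC2A5, the fructose transporter, averaged 5.49 ± 1.48 CPM in the regrown pools and 26.9 ± 2.49 CPM in the parental libraries (SD, n = 3 each). The change was -2.30 ± 0.20, adjusted p = 2.53e-05. The metal transporter gene SLC39A8 had 22.8, 22.2 and 13.5 CPM in regrown against 49.0, 46.6 and 41.8 CPM in parental libraries (-1.23 ± 0.19, adjusted p = 0.000692). In both genes every pool was below every parental library. SLC7A5, a large neutral amino acid transporter, fell by 0.57 ± 0.14. TFRC, the transferrin receptor, rose by 0.81 ± 0.12 together with its neighbours on chromosome 3 (0.84). In autophagy and lysosome genes, of 32 tested, 2 rose and 7 fell (median -0.03). Genes of the LC3 and GABARAP family, which coat autophagosomes, were among the falls. MAP1LC3B had 14.7, 15.1 and 10.3 CPM in the regrown pools and 23.5, 26.1 and 34.0 CPM in the parental libraries (-1.07 ± 0.19, adjusted p = 0.00202), and GABARAPL1 had 0.995, 0.752 and 0.963 CPM in regrown against 1.91, 2.00 and 2.66 CPM in parental libraries (-1.28 ± 0.27, adjusted p = 0.00526). GABARAP had 15.4, 15.2 and 14.0 CPM in regrown against 23.0, 29.3 and 30.3 CPM in parental libraries (-0.89 ± 0.14, adjusted p = 0.00112). Cathepsin genes CTSL (-0.97 ± 0.09), CTSS (-1.39 ± 0.23) and CTSB (-0.56 ± 0.12) fell as well, and WIPI2 (0.46 ± 0.10) and ATG3 (0.37 ± 0.10) rose. ATG3 was not called without regrown replicate 2 (0.36), regrown replicate 3 (0.33) or parental replicate 1 (0.31). Proteasome subunits split evenly, with 4 rises and 4 falls of 34, of which PSMD2 (1.11 ± 0.14) and PSMA6 (-0.84 ± 0.10) were furthest from 0. Of 19 nuclear receptors 3 rose, such as RARA (0.48 ± 0.09), and 3 fell, such as PPARA (-0.64 ± 0.17). Without regrown replicate 2, parental replicate 1 or parental replicate 2 this list had 3 calls in place of 6, and PPARA was not called (-0.60, -0.50 and -0.66).

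Steady-state RNA of the same lines was set beside the nascent counts in other libraries: RNA-seq of 3 regrown and 3 parental libraries with Cas9 and an inducible guide against ZFP91 but no doxycycline, and DGE, which counts transcript ends, of cells given DMSO. RNA-seq called 43.7% of 13379 genes and DGE 6.21% of 5941. Of genes called in PRO-seq in the 22 lists that were not marker lists, 184 were tested in RNA-seq, and of these 114 were called in the same direction, 62 were not called and 8 were called in the opposite direction. Over all genes, 3671 were called in PRO-seq and tested in RNA-seq, of which 2026 were called in the same direction and 168 in the opposite one. The shares were 62.0% and 4.35% of the list genes, beside 55.2% and 4.58% of all genes. Of 86 list genes that rose in PRO-seq 61 rose in RNA-seq, and of 98 that fell 53 fell. The shares over all genes are not given by direction, so nothing is read from the difference between rises and falls. In RNA-seq PTPRC had 550.3, 460.2 and 545 CPM in the regrown libraries and 4.16, 4.10 and 5.32 CPM in the parental libraries (6.83 ± 0.14). SYK had 0 in every regrown library against 0.675, 0.787 and 1.38 CPM in parental libraries. Some nascent changes had no called counterpart. C5AR1 had 1.73, 0.964 and 0.724 CPM in the regrown libraries and 0.900, 1.18 and 2.00 CPM in the parental libraries in RNA-seq. NR4A1 had a change of -0.31 ± 0.28, PTPN22 of -0.23 ± 0.12 and MYB of -0.32 ± 0.18. ELL2 (-0.14 ± 0.10), AFF4 (0.23 ± 0.10), AFF1 (-0.04 ± 0.09) and EAF2 (-0.05 ± 0.26) were not called in RNA-seq, while EAF1 rose there (0.68 ± 0.11). In other genes the RNA-seq value was further from 0. IFITM3 had 1.89, 1.18 and 1.03 CPM in RNA-seq of regrown cells against 121, 144 and 183 CPM in parental cells (-6.76 ± 0.21), and CD163 had 4.82, 4.98 and 7.78 CPM against 299, 308 and 303 CPM (-5.70 ± 0.15). LTBR had 0, 0.536 and 0.121 CPM in regrown against 42.3, 40.9 and 40.2 CPM in parental cells. The difference between the assays was not tested.

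The 8 list genes called in opposite directions all changed by less than 2-fold in both assays, and 7 of them are given here. POLR2A had a log2 fold change of -0.49 ± 0.13 in PRO-seq and 0.40 ± 0.09 in RNA-seq, ERCC2 -0.32 ± 0.10 and 0.30 ± 0.09, PAG1 -0.37 ± 0.12 and 0.34 ± 0.11, and DOCK10 -0.66 ± 0.20 and 0.77 ± 0.29. In the other direction, SLC3A2 (0.39 ± 0.10 and -0.59 ± 0.09), NR1H3 (0.48 ± 0.11 and -0.67 ± 0.26) and CCR1 (0.75 ± 0.25 and -0.79 ± 0.13) were higher in PRO-seq and lower in RNA-seq. SLC3A2 was not called in PRO-seq without parental replicate 2 (0.35).

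**Figure D3:**
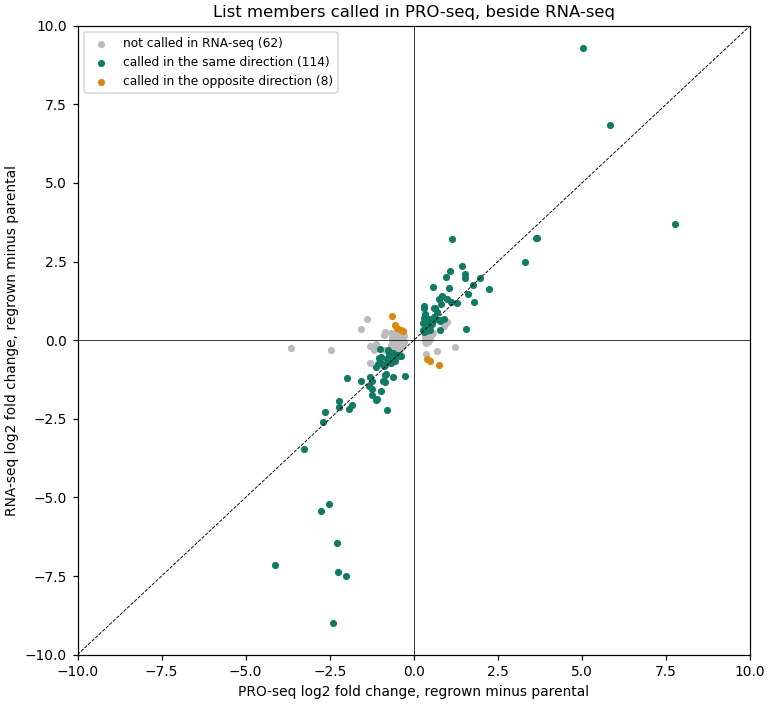
RNA-seq log2 fold change (vertical) against PRO-seq log2 fold change (horizontal), both regrown minus parental, for the 184 list genes called in PRO-seq and tested in RNA-seq, coloured by the RNA-seq call, with the dashed line marking equal change. Of these 114 were called in the same direction and 8 in the opposite one, and those 8 lay close to the centre.

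Genes called with at least a 2-fold change were looked at pool by pool. They were chosen by the mean and spread of these same 3 pools, which favours genes in which the pools agree. The counts therefore describe the chosen genes and do not measure how far the pools share their changes. Of 512 genes called at least 2-fold higher, 290 (56.6%) were past 2-fold over the parental mean in all 3 pools, 137 in 2, 57 in 1 and 28 in none. Of 910 called at least 2-fold lower, 461 (50.7%) were past it in all 3, 303 in 2, 102 in 1 and 44 in none. These 1422 genes were 8.64% of those tested. The pools varied more among themselves than the parental libraries did. Of 15945 genes with a mean of at least 1 CPM, 83 had an SD of log2 level over 1 in the regrown pools and 1 in the parental libraries. The median SD was 0.149 and 0.131 on the log2 scale. The pools were separate populations and the parental libraries were of 1 line, and spread between pools cannot be told apart here from spread between cultures.

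Genes in which 1 library stood at least 2 log2 units from both others of its group, which lay within 1 unit of each other, numbered 17 in the regrown pools and 0 in the parental libraries. Pool 3 accounted for 16 of them, 12 lower and 4 higher, pool 1 for 1 and pool 2 for 0. With a gap of at least 1 there were 259, of which 169 were in pool 3, 73 in pool 1 and 17 in pool 2. ZNF518B, a zinc finger gene, had 21.4, 26.9 and 1.24 CPM in the regrown pools and 2.74, 3.12 and 2.95 CPM in the parental libraries. Pools 1 and 2 were several fold above the parental libraries and pool 3 below them. The exchange factor gene ARHGEF25 had 5.28, 7.40 and 0.105 CPM in the regrown pools and 0.0783, 0.560 and 0.186 CPM in the parental libraries. ZNF551 had 4.79, 6.87 and 0.670 CPM in the regrown pools and 0.0261, 0.0295 and 0.0266 CPM in the parental libraries. The homeobox gene HOXC8 had 3.29, 3.89 and 0.377 CPM in the regrown pools and 0.287, 0.147 and 0.531 CPM in the parental libraries. In all of these genes pools 1 and 2 were above the parental libraries, while the rule itself set pool 3 apart from them. Pool 3 was below the parental range in ZNF518B, within it in ARHGEF25 and HOXC8, and above it in ZNF551. The call of ARHGEF25 was lost without regrown replicate 2, parental replicate 1 or parental replicate 3 (3.28 to 3.76), and that of HOXC8 without parental replicate 1 or 2 (2.84 and 2.60). With all libraries limma-voom called neither ARHGEF25 (2.77, adjusted p = 0.249) nor HOXC8 (2.41, adjusted p = 0.0819). In contrast GLIS3, a Krüppel-like transcription factor gene, had 137, 99.8 and 13.8 CPM in the regrown pools and 171, 204 and 159 CPM in the parental libraries. SLC7A2, a transporter of cationic amino acids, had 13.6, 17.0 and 1.70 CPM in the regrown pools and 14.5, 14.9 and 12.8 CPM in the parental libraries. Pools 1 and 2 were below the parental range in GLIS3 and near it in SLC7A2, and pool 3 was far lower in both. PLCB2, a phospholipase downstream of G proteins, had 18.6, 19.5 and 2.01 CPM in the regrown pools and 11.6, 10.1 and 12.8 CPM in the parental libraries, and FHL2, a LIM domain cofactor, had 64.5, 39.7 and 7.39 CPM in the regrown pools and 35.3, 28.2 and 27.3 CPM in the parental libraries, with pool 3 alone below the parental range in both.

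In other genes pool 3 was the highest pool. ZNF577 had 0.935, 0.777 and 5.51 CPM in the regrown pools and 5.80, 6.16 and 4.68 CPM in the parental libraries, and OPLAH, an enzyme of the glutathione cycle, had 0.241, 0.0251 and 3.02 CPM in the regrown pools and 7.15, 6.45 and 8.42 CPM in the parental libraries. Pool 3 lay within the parental range in ZNF577 and below it in OPLAH. OPLAH was not called without regrown replicate 1 or without any 1 parental library (-2.24 to -2.77), nor by DESeq2 with all libraries (-2.75, adjusted p = 0.146). FCRL1, an Fc receptor-like gene, had 2.23, 1.63 and 10.7 CPM in the regrown pools and 4.93, 4.24 and 3.51 CPM in the parental libraries, with pools 1 and 2 below and pool 3 above the parental libraries. Without regrown replicate 3 the change of FCRL1 was -1.13 in place of 0.21, that of ZNF577 -2.69 in place of -1.17, that of FHL2 0.78 in place of 0.29, that of PLCB2 0.72 in place of 0.21 and that of GLIS3 -0.58 in place of -1.09, and these 5 were called then and not by the same edgeR test with all 3 pools. With all 3 pools limma-voom called ZNF577 (-1.70, adjusted p = 0.0362). The call of ZNF518B was lost without any 1 of pools 1 and 2 and the parental libraries (1.94 to 2.53), and with all libraries under DESeq2 (2.48, adjusted p = 0.0527) and limma-voom (1.48, adjusted p = 0.337). TP73-AS1, named as antisense to TP73, had 10.6, 12.5 and 1.07 CPM in the regrown pools and 15.7, 14.7 and 20.0 CPM in the parental libraries, while the TP73 levels of the 3 pools lay close together. The counted intervals of TP73 and TP73-AS1 do not overlap, as TP73 ends at 3736201 and TP73-AS1 begins at 3737149. Whether counting used strand was not stated, so reads of antisense genes whose intervals do overlap are uncertain.

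**Figure D4:**
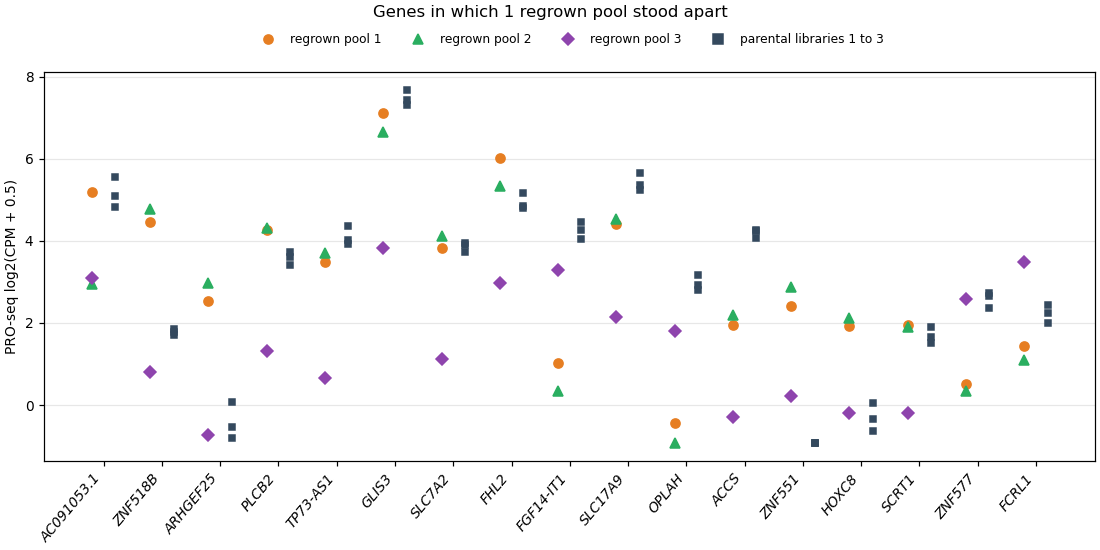
PRO-seq log2(CPM + 0.5) of the 17 genes in which 1 regrown pool stood at least 2 log2 units from both others, with a coloured marker for each pool and, to its right, a dark square for each parental library. Pool 3, the purple diamond, was the pool apart in 16 of the 17 genes.

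The RNA-seq libraries with the same pool numbers were looked at for the same differences. Of the 17 genes 14 were tested in RNA-seq, but 3 of these (OPLAH, ACCS and ZNF577) were at 0 CPM in all 3 regrown libraries. In 4 of the other 11 the library of the same number lay on the same side, in 0 of them by 1 log2 unit. GLIS3 had 7.97, 5.46 and 14.7 CPM in RNA-seq of regrown libraries 1, 2 and 3. S100A9, uneven in PRO-seq, had 14.5, 17.4 and 16.8 CPM. Of the 259 genes with a gap of at least 1, 94 had at least 1 CPM in RNA-seq, and 44 (46.8%) lay on the same side there, with a median of -0.02 on the log2 scale in the direction of the PRO-seq gap. In DGE 11 of the 259 had at least 10 CPM. Of these 8 were genes of pool 3, of which 7 lay on the same side, and 3 were genes of pool 1, of which 0 did. DGE totals were only 279197 to 370447 counts, so levels near 10 CPM there rest on few counts. IL10, an anti-inflammatory cytokine gene, had 132, 107 and 419 CPM in PRO-seq of the pools against 458, 500.4 and 497 CPM in parental libraries, with pool 3 highest among the pools. It had 89.7, 81.0 and 69.2 CPM in RNA-seq of regrown libraries 1, 2 and 3, where library 3 was lowest, and 240.2, 57.6 and 315 CPM in DGE of the regrown libraries, where library 2 was the one furthest from the others. It was named after its values were seen. Whether the same numbers mark the same pools across assays rests on the labels alone and was not tested.

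Pool 3 also stood apart over a stretch of neighbouring genes, found by a rule set after the values were seen (a running median over 25 genes past 0.4 on the log2 scale). On the short arm of chromosome 9, from 0.47 to 6.65 Mb, 25 genes had a median of -0.84 in pool 3 against the other pools, and 24 of them were lower. The rule chose the stretch by this same difference, so these values describe it and lend it no separate support. Its ends depend on the window. Past its end, KDM4C was -0.34, -0.29 and -0.94 over the parental mean in pools 1, 2 and 3. Before its start, DOCK8 was -0.68, -0.86 and -0.91. Over the parental mean their medians were -0.15, 0.02 and -0.98 in pools 1, 2 and 3. The stretch holds CD274 and JAK2, the kinase gene of cytokine receptors. JAK2 had 50.0, 43.9 and 25.9 CPM in the regrown pools and 64.2, 69.7 and 52.2 CPM in the parental libraries, with pool 3 lowest (-0.64 ± 0.21, adjusted p = 0.0404). CD274, given above, was below the parental range in all 3 pools. KANK1, a regulator of actin, was at 59.3, 71.2 and 26.7 CPM in the pools and 64.3, 61.1 and 56.4 CPM in parental libraries, and AK3, a mitochondrial adenylate kinase, at 41.3, 49.5 and 20.0 CPM in the pools and 41.1, 35.4 and 43.1 CPM in parental libraries. In both genes pools 1 and 2 were within or above the parental range and pool 3 was below it. Regrown library 3 against the other regrown libraries had a median of 0.08 in RNA-seq (19 genes). In DGE, where library totals were low, it was -0.66 (7 genes). Milder shifts of pool 3 covered 29 genes from 1.97 to 11.2 Mb of chromosome 8 (median -0.44) and 36 genes from 17.8 to 23.7 Mb (-0.48). Stretches that overlap those of pool 3 passed the same rule in pool 2, in the other direction: 22 genes from 12.7 to 22.2 Mb of chromosome 8 had a median of 0.45 in pool 2 against the other pools, and 18 genes from 3.22 to 6.01 Mb of chromosome 9 one of 0.50. Pool 2 was set there against the mean of pools 1 and 3, so a low pool 3 by itself raises this difference. In those 22 genes the medians of pools 1, 2 and 3 over the parental mean were -0.13, 0.17 and -0.44. Over the parental mean the medians of pools 1, 2 and 3 in those 18 genes were -0.17, 0.02 and -0.98. DNA copy number was not measured in these files.

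**Figure D5:**
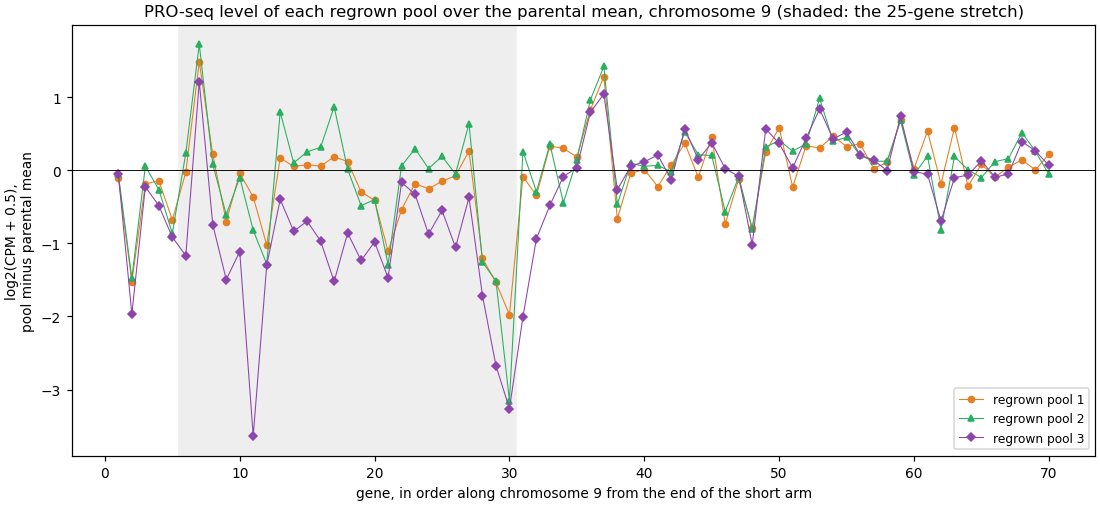
PRO-seq log2(CPM + 0.5) of each regrown pool minus the parental mean, for the first 70 measured genes of chromosome 9 in order from the end of the short arm, with the 25-gene stretch shaded. Within the shading pool 3 (purple diamonds) lay below the mean of pools 1 and 2 in 24 of 25 genes, and the shaded stretch was chosen by this same difference.

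Calls were spread unevenly over chromosomes and gene lengths. On chromosome 3, 45.5% of 929 genes were higher and 9.47% lower in regrown cells (median 0.34). On chromosome 6 the shares were 25.2% and 28.0% of 870 genes, on chromosome 7 23.5% and 8.97% of 780, on chromosome 2 5.47% and 30.0% of 1115 (median -0.17), and on chromosome 20 8.28% and 25.9% of 459. Over all genes they were 14.0% and 16.2%. The share of genes lower in regrown cells was 11.7% among 4085 genes under 5 kb and 24.6% among 1842 genes over 100 kb, while the share higher lay between 11.8% and 16.3% in every length class. The part of gene length in the number of calls was not tested. The median change ran from 0.07 in the shortest class to -0.07 in the longest. Counts covered the whole gene, so polymerase at the pause site and in the gene body could not be told apart.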

How the data were processed

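The authors' deposited PRO-seq file holds raw read counts over 1 interval per gene; per the submitters' processing notes cutadapt 1.14, Bowtie 1.2.2 and featureCounts 1.6.2 were used with hg38, and use of strand is not given in the sources used here. RNA-seq and DGE counts were deposited by the authors in other tables, and 12 columns of other groups there were not used. Totals were 33467869 to 47199672 counts in PRO-seq, 17008139 to 20408212 in RNA-seq and 279197 to 370447 in DGE. Gene names came from the RNA-seq table (17406) or a RefSeq table (365), 16 symbols stored as dates were restored by identifier, and 5 identifiers had no name.

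Each assay was fitted alone with edgeR 4.0.16 in R 4.3.3 (filterByExpr, TMM, quasi-likelihood test, Benjamini-Hochberg adjustment over all genes tested, adjusted p under 0.05). The PRO-seq fit was also run on simulated counts as a check of the code. Their spread depended on level alone and not on the gene or pool, so the check does not measure error rates in these data. Normalised log2 levels used a pseudocount of 0.5 CPM where single pools were compared. A neighbour median is the median log2 fold change of the 24 nearest tested genes, 12 on each side. Alternatives used DESeq2 1.42.0, limma 3.58.1, other scalings and filters, a replicate block, and each library left out. Named genes were the called genes with the smallest p, at least 2-fold, whose mean log2 CPM reached 3 and whose groups did not overlap (12 in each direction), those with the largest difference per kilobase (10 in each direction), from each list at most 5 called genes by p and 2 in each direction by size, single-pool genes, and genes at 0 in 1 group. Other genes, such as LCK, CD3D, GZMB, PRF1, KANK1, AK3 and IL10, were named after their values were seen. The members and the gene lists were chosen with earlier results of these data known, and the 1-unit gap beside other assays, the stretches and the promoters were chosen after seeing the data. Some results are not reported here. Figures were drawn with matplotlib 3.10.9.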

Additional observations from a re-analysis of the deposited data

How the results depend on the processing

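Another scaling, another filter, DESeq2 and limma-voom called between 4914 and 5447 genes in PRO-seq, against 4973. Leaving out 1 library gave 3245 to 5322 calls, and 1417 to 2505 called higher; the lowest of each was without parental replicate 2. Of 2283 values recomputed for 176 named genes, 2197 kept their direction and side of the threshold, 75 lost their call, 10 gained one and 1 reversed: FCRL1, which was -1.13 without regrown replicate 3 and ran up to 0.63 without regrown replicate 2. Single-pool genes numbered 259 with a gap of at least 1, 10 with a mean of at least 5 CPM and 6 with a pseudocount of 2, against 17. The cause of these shifts was not tested. The labels do not pair the groups by replicate number. The correlation of deviations between a pool and the parental library of the same number was 0.235, 0.0038 and 0.037, highest for number 1. A batch shared by number was not tested. With a replicate block PRO-seq called 5227 genes, and 210 list genes against 200. The same block gave 5315 calls in RNA-seq against 5850, and 523 in DGE against 369. The TNF list in PRO-seq then had 11 calls against 7, ZNF577 (-1.70) and GLIS3 (-1.54) gained a call, and ZNF518B (1.86) lost its own. With library size alone RNA-seq called 5961 and DGE 371. With 10 nearest genes in place of 24, 43 named genes had a neighbour median past 0.5, against 38. DGE had the lowest totals, and a gene not called there may be below what its depth can show.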

Other observations

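Of the 259 genes in which 1 pool stood at least 1 log2 unit from both others, 76 were higher and 93 lower in pool 3, 46 higher and 27 lower in pool 1, and 9 higher and 8 lower in pool 2. A further short stretch, of 29 genes from 0.22 to 0.78 Mb of chromosome 11, had a median of -0.56 in pool 1 against the other pools in PRO-seq, 0.06 in RNA-seq (23 genes) and -0.02 in DGE (10 genes). Overlapping stretches of chromosome 1 that began between 228.46 and 228.61 Mb were apart in pool 1 (0.80), pool 3 (-0.87) and parental replicate 1 (0.49). They held 21, 19 and 17 genes, the last packed between 228.61 and 228.65 Mb. Only 1, 1 and 0 of these reached a mean of 1 CPM in RNA-seq. Whether such close rows share reads was not tested.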
